A study of Mus musculus with 4 samples.

Results

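The MHC class II antigen presentation genes measured in bleomycin (BLM)-treated mouse skin were H2-Aa, H2-Ab1, H2-Eb1, H2-DMa, H2-DMb1, Cd74 and Ciita, taken by name from the deposited table. All 7 of these names were among the 24441 genes listed. The RNA came from skin of 2 WT and 2 GSDMD KO (GSDMD-/-) mice, female C57BL/6 animals labelled as 8 weeks old, and GSDMD is the protein whose cleaved part forms pores in the membrane of cells that die by pyroptosis. Both genotypes received BLM under the skin every other day for 28 days, a treatment used as a model of scleroderma, so no value below compares treated with untreated skin. The knockout was made by injecting Cas9 mRNA and guide RNA into C57BL/6 eggs and is not restricted to a tissue, and the comparison asked what the loss of GSDMD changed in treated skin.

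MHC class II molecules carry peptides from engulfed material to the surface of dendritic cells, macrophages and B cells and show them to CD4+ T cells. An alpha and a beta chain are assembled on the invariant chain, which is then cut away in acidic vesicles and replaced by an antigen peptide with the help of the H2-DM dimer. The genes are switched on together by CIITA, a coactivator that binds no DNA itself and is recruited by factors sitting on a shared promoter module, the X and Y boxes.

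The values were FPKM, fragments scaled by transcript length and library depth, and they summed to between 448544 and 462251 per library. From the steps in which low genes rise, the depth was estimated at about 12800000 (KO replicate 2) to 17450000 (WT replicate 1) fragments, and 3 fragments on 1 kb of transcript, used as a floor, correspond to 0.172 to 0.234 FPKM. Gsdmd itself, on chromosome 15, kept 2.90 ± 0.902 FPKM in the KO group against 16.1 ± 2.90 FPKM in the WT group (SD, n = 2 each). On the log2 scale it changed by -2.14 ± 0.29 (SE; limma adjusted p = 0.248, here and below by the Benjamini-Hochberg method over all genes tested). KO replicate 2 stood apart from the other libraries. Its summed fibroblast markers were 32.7 FPKM against 237 to 518 in the others, its summed endothelial markers were 18.2 FPKM against 104 to 166, and it alone showed genes of the Y chromosome above 0 (4 of the 15 listed, together 1.78 FPKM) although the mice are described as female. KO replicate 1 in turn held 374 FPKM of hair follicle keratins and related genes against 1.38 to 13.1 in the other libraries. The main results are therefore also given without one or the other of these libraries.

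Letters of this promoter module were found ahead of 3 of the 7 genes, H2-Aa, H2-Eb1 and H2-DMb1, and the stretches below are shown because these genes share them. They come from the RefSeq promoter table, in which a window runs from 250 bases before to 50 bases after a gene's start, on build GRCm38.p6, and not on mm9, the build of the expression table. Of the 7 genes, 4 matched an entry there, with 5 windows. The letters searched were GNAACT, as found in X boxes, followed by GATTGG, the Y box, with 20 to 40 bases between their starts and on either strand. They were chosen after the windows had been read. The Y box contains ATTGG, which is CCAAT on the other strand, and capitals mark both sets of letters.
H2-Aa: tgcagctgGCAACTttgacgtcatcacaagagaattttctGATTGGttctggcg
H2-Eb1: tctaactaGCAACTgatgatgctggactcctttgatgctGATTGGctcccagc
H2-DMb1: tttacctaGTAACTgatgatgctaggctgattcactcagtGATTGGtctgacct
H2-Eb2: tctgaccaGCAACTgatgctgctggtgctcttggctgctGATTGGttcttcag

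These stretches lie on chromosome 17 of GRCm38.p6, H2-Aa at chr17:34287859-34287912 on the minus strand, and H2-Eb1 at chr17:34305768-34305820, H2-DMb1 at chr17:34153089-34153142 and H2-Eb2 at chr17:34325535-34325587 on the plus strand. The Y letters began 49 bases before the start of H2-Aa, 60 before that of H2-Eb1, 62 before that of H2-DMb1 and 101 before that of H2-Eb2. The distance from X to Y letters was 32 bases in H2-Aa and H2-DMb1 and 31 bases in H2-Eb1 and H2-Eb2. H2-Eb2 is shown as a gene with the same letters and hardly any RNA in this skin. The pair was found in 3 of the 5 class II windows and in 104 of all 32851 windows, which is 0.317%. Neither of the windows of H2-DMa held it. Of the 4 windows of other class II chains, that of H2-Eb2 held it and those of H2-DMb2, H2-Oa and H2-Ob did not. None of 13 class I windows or 9 windows of processing genes did. Singly the letters were common, with GNAACT in 42.8% and GATTGG in 16.1% of all windows. A match describes these letters only.

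In the skin of GSDMD KO mice, every one of the 7 class II genes was lower than in WT mice, and the values of the groups did not overlap for any of them. Summed over the 7 genes, the WT libraries held 1126 and 1126 FPKM, KO replicate 1 held 681 FPKM and KO replicate 2 held 209 FPKM. The median log2 fold change of the 7 genes was -1.32, on the log2(FPKM + 1) scale used throughout, which understates the change of low genes, while the median of all 13027 genes tested was 0.11. By limma with Benjamini-Hochberg adjustment, 0 of the 7 passed an adjusted p under 0.05 with an absolute log2 fold change above 1, and 0 of all genes tested did (0%). At an unadjusted p under 0.05, 2230 of all genes and 5 of the 7 passed at any fold, and these 5, H2-Aa, H2-Ab1, H2-Eb1, H2-DMa and H2-DMb1, were also more than 1 log2 unit lower, as were 4.14% of all genes tested, while 6.16% were more than 1 log2 unit higher at that p and none of the 7 was. Both KO values lay under both WT values in 20.5% of all genes and above them in 35.3%. In whole skin, fewer cells that make these transcripts and less transcript per cell cannot be told apart.

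**Figure D1:**
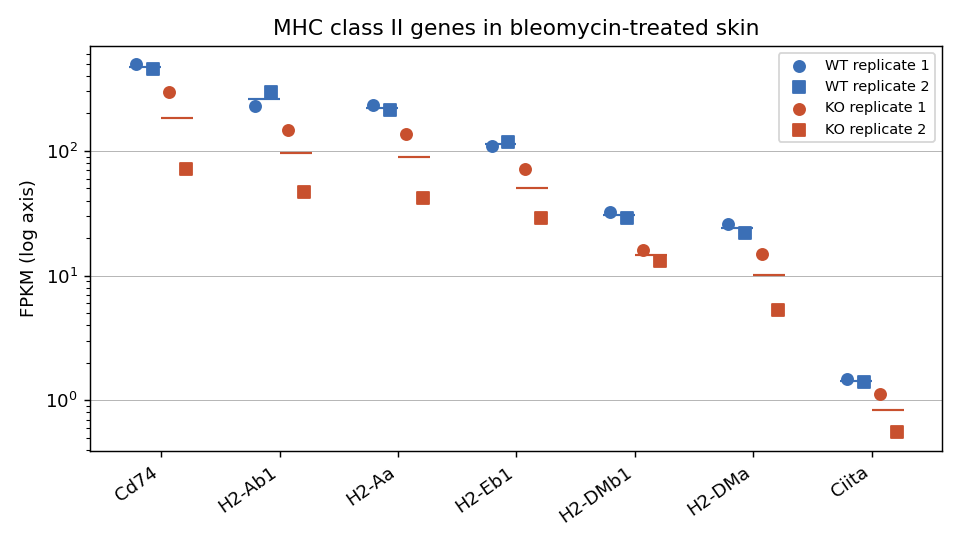
FPKM on a log axis of each class II gene in each library, with circles for replicate 1 and squares for replicate 2 of WT (blue) and KO (orange), and a short line at each group's mean of 2 libraries. All KO points lie under the WT points of the same gene, and KO replicate 2 is lowest in all 7 genes, by a small step in H2-DMb1 (16.0 and 13.1 FPKM) and a large one in Cd74 (294 and 71.8 FPKM).

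Per kilobase of transcript, the classical chains were the most abundant of the 7 after the invariant chain. H2-Aa, the alpha chain of the I-A molecule, lies on chromosome 17 (mm9) at 34419696 to 34424716 and had 234 and 211 FPKM in WT mice against 137 and 41.8 FPKM in KO mice. Its mean was 222 ± 16.1 FPKM in WT and 89.3 ± 67.1 FPKM in the KO group (SD, n = 2 each), and the fold change on the log2 scale was -1.54 ± 0.57 (SE; limma adjusted p = 0.282). KO replicate 1 kept 61.5% of the WT mean and KO replicate 2 kept 18.8%, so the KO mice differed from each other more than the WT mice did. H2-Ab1, the beta chain that pairs with H2-Aa, lies beside it from 34400172 to 34406363, with 228 and 294 FPKM in WT mice against 147 and 47.1 FPKM in KO mice. The log2 fold change of H2-Ab1 was -1.63 ± 0.56 (SE; limma adjusted p = 0.269). Annotated exons of H2-Aa and H2-Ab1 overlap on opposite strands, because the annotated span of H2-Aa opens at 34406276. The spans given here, those of the expression values, do not overlap. No source used here says that strand was counted, and a sharing of fragments between these genes was not tested. H2-Eb1, the beta chain of the I-E molecule, lies from 34442812 to 34453619 and had 110.3 and 118 FPKM in WT mice against 71.3 and 28.9 FPKM in KO mice. This was a log2 fold change of -1.31 ± 0.46 (SE; limma adjusted p = 0.270). C57BL/6 mice lack the alpha chain of I-E, so that H2-Eb1 is transcribed there without a partner, and KO replicates 1 and 2 held 62.5% and 25.3% of its WT mean.

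H2-DMa and H2-DMb1 encode the alpha and a beta chain of H2-DM, which edits the peptides bound by class II molecules. H2-DMa is placed on chromosome 17 from 34259777 to 34276046, a span that opens ahead of the annotated start at 34272127, and it had 26.0 and 22.1 FPKM in WT mice against 14.9 and 5.31 FPKM in KO mice. The log2 fold change was -1.32 ± 0.48 (SE; limma adjusted p = 0.278). In H2-DMb1, from 34290136 to 34297174, the KO libraries were the closest to each other of the 7 genes, with 32.5 and 29.2 FPKM in WT mice against 16.0 and 13.1 FPKM in KO mice. The group means were 30.9 ± 2.34 and 14.5 ± 2.06 FPKM (SD, n = 2 each), and both KO mice were at similar shares of the WT mean, 51.7% and 42.3%. With -1.04, H2-DMb1 had a smaller fold change than H2-DMa, an order that turned with KO replicate 2 left out (-0.91 and -0.65), and the smallest standard error of the 7 genes, 0.24 (limma adjusted p = 0.248). The second beta chain gene, H2-DMb2, shares 27.1% of the 50-base words of H2-DMb1, so that the counting may have divided common fragments between the pair. The other 6 genes shared 0 such words with any annotated protein-coding transcript of another gene. Annotated exons of AC139759.1 overlap those of Cd74 on the same strand, and a division of fragments between them was not tested.

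Cd74 encodes the invariant chain, the chaperone that fills the groove of a new class II molecule, and was the most abundant of the 7 in every library. Placed on chromosome 18 of mm9 (60963503 to 60972306), it had 494 and 450.4 FPKM in WT mice against 294 and 71.8 FPKM in KO mice. The mean was 472 ± 30.9 FPKM in WT and 183 ± 157 FPKM in the KO group (mean ± SD, n = 2 each). With all 4 libraries Cd74 had the largest fold change of the 7 genes, -1.69, although H2-Ab1 was ahead of it with WT replicate 1 left out (-1.81 and -1.62) and H2-DMb1 with KO replicate 2 left out (-0.91 and -0.68), and it had the largest standard error, 0.67 (limma adjusted p = 0.294). KO replicate 1 kept 62.2% of the WT mean and KO replicate 2 kept 15.2%. Ciita, the coactivator, lies on chromosome 16 from 10480165 to 10527733 and was the lowest of the 7 per kilobase, with 1.47 and 1.41 FPKM in WT mice against 1.12 and 0.553 FPKM in KO mice. On its longest annotated transcript of 5290 bases these values correspond to about 136, 106, 80.8 and 37.5 fragments. The log2 fold change of Ciita was -0.43 ± 0.27 (SE; limma adjusted p = 0.432), a difference that the added pseudocount of 1 makes smaller, and it reached -0.79 with a pseudocount of 0.1. As shares of the WT mean, the KO libraries held 77.9% and 38.4% of Ciita, both above their shares of Cd74 or H2-Aa, with no test of that difference.

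The size of the difference depended on which KO mouse was read. With KO replicate 2 left out, the median of the 7 fold changes was -0.68 (log2) and limma called 0 of them, where it called 43 of 13027 genes (0.330%). Without KO replicate 1 the median was -1.99 and limma called 6 of the 7, all but Ciita, where it called 2058 genes (15.8%). In these fits the remaining KO library is assumed to vary as the WT libraries do. For single genes the range was widest in Cd74, from -0.68 without KO replicate 2 to -2.70 without KO replicate 1, and narrowest in H2-DMb1, from -0.91 to -1.18. Scaling by median-ratio factors moved the median of all genes from 0.11 to 0.01, and it changed the split of genes past the unadjusted threshold from 539 lower and 802 higher to 707 lower and 632 higher. The median of the 7 class II genes was then -1.43, and 7 of 7 were lower.

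Within a library the transcripts of the I-A chains, H2-Eb1, H2-DMa and Cd74 stood in similar proportions to each other, and ratios with H2-DMb1 or Ciita mostly varied more. Cd74 stood to H2-Aa at 2.11 and 2.13 in WT and at 2.15 and 1.72 in KO mice, a highest value only 1.25 times the lowest, while the level of Cd74 itself ranged from 71.8 to 494 FPKM. H2-Aa stood to H2-DMa at 8.99, 9.53, 9.14 and 7.88 in the same order. The ratio of H2-Aa to H2-Ab1 was 1.02 and 0.717 in WT and 0.933 and 0.887 in KO libraries, so that here the WT mice spanned the KO mice. H2-DMb1 departed from this in KO replicate 2: H2-DMa stood to H2-DMb1 at 0.800 and 0.758 in WT and 0.936 in KO replicate 1, and at 0.407 in KO replicate 2. The ratio of H2-Aa to Ciita was 159 and 150.0 in WT and 122 and 75.5 in KO libraries, lower in both KO mice than in both WT mice. These are 4 points per ratio and are given as a description.

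**Figure D2:**
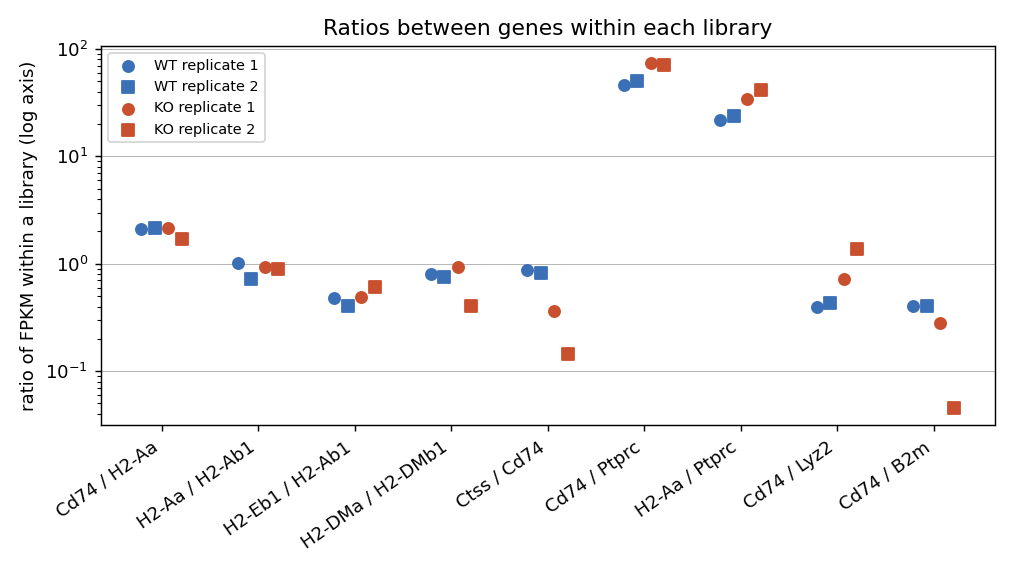
Ratio of the FPKM of 1 gene to that of another within each library, on a log axis, with the libraries marked as in the plot of single genes. The first 3 ratios, of Cd74, H2-Aa, H2-Ab1 and H2-Eb1, span at most 1.53 times from the lowest to the highest library, and H2-DMa to H2-DMb1 spans 2.30 times. Ctss to Cd74 is 0.868 and 0.816 in WT and 0.367 and 0.144 in KO libraries, and Cd74 to Ptprc is higher in both KO libraries.

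The remaining class II chains were scarce. Of 6 genes on their list 5 were found, and H2-Ea was not. H2-DMb2 had 4.67 and 3.23 FPKM in WT mice against 2.07 and 0.338 FPKM in KO mice, with a log2 fold change of -1.27 ± 0.46 (SE; limma adjusted p = 0.276). It was -0.68 with KO replicate 2 left out and -1.87 with KO replicate 1 left out. H2-Oa and H2-Ob, the chains of H2-O, which holds H2-DM back and is best known from B cells, reached at most 0.785 and 0.357 FPKM, were too low to be tested and overlapped between groups. H2-Eb2 and H2-Ea-ps were at or near 0, with no more than 2 estimated fragments in any library (highest 1.94 and 1.83). Differences in H2-Eb2 and H2-Ea-ps were not detectable at this depth.

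The list of 10 genes for the vesicle steps of class II loading was lower in GSDMD KO mice in 10 of 10, with a median log2 fold change of -0.86. With KO replicate 2 left out, 8 were lower and 2 higher, with a median of -0.45. In 8 of the 10 both KO values lay under both WT values, against 20.5% of all genes tested. By limma 0 passed the threshold on the adjusted p, while Ctss and Lgmn, 2 of the 10, passed an unadjusted p under 0.05 with the limit of 1 on the fold change, as 4.14% of all genes did, and Tcirg1 passed that p with a smaller fold. Ctss, the protease that makes the last cuts of the invariant chain in most antigen-presenting cells, had 429 and 367 FPKM in WT mice against 108 and 10.3 FPKM in KO mice, a larger difference than in any of the 7 class II genes. Its log2 fold change was -3.50 ± 1.05 (SE; limma adjusted p = 0.248), -1.87 without KO replicate 2 and -5.13 without KO replicate 1. The legumain gene Lgmn, an asparaginyl endopeptidase, had 149 and 218 FPKM in WT mice against 108 and 36.5 FPKM in KO mice (log2 fold change -1.50, limma adjusted p = 0.282). Ctsb, Ctsh, the thiol reductase gene Ifi30 and the proton pump subunit gene Tcirg1 had log2 fold changes of -1.24, -0.53, -0.79 and -0.88. Ctsl, with 97.4 and 99.3 FPKM in WT, differed between the KO mice, at 103 and 26.6 FPKM, and the groups overlapped. Of the ubiquitin ligase genes that take class II molecules off the surface, March1 was low and had a log2 fold change of -0.84, and March8 overlapped between groups, with 13.4 and 11.9 FPKM in WT mice against 12.9 and 12.0 FPKM in KO mice. The cathepsin inhibitor gene Cst3 kept 678 and 716 FPKM in KO against 801 and 979 FPKM in WT libraries.

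The genes of factors that sit on the X and Y boxes, listed with the acetyltransferase genes Crebbp and Kat2b, were mostly higher in value, with small differences. Of 9 genes tested, 8 were higher and 1 was lower in the KO group, at a median log2 fold change of 0.35. Of all 13027 genes tested, 7635 were higher and 5392 lower. The same counts of higher and lower genes of this list came with median-ratio and upper-quartile scaling, where the median was 0.23 and 0.24. With KO replicate 2 left out the counts were again 8 and 1, with a median of 0.23. None passed the adjusted threshold or an unadjusted p under 0.05 by limma, and their log2 fold changes ran from -0.35 to 0.68. Rfx5, a subunit of the X-box factor, had 5.29 and 4.42 FPKM in WT mice against 6.21 and 5.58 FPKM in KO mice. Rfxank, another subunit, had 3.99 and 3.83 FPKM in WT mice against 6.15 and 5.77 FPKM in KO mice, and Rfxap had a log2 fold change of 0.31. For the Y-box factor, Nfya, Nfyb and Nfyc had log2 fold changes of 0.46, 0.50 and 0.35, and the groups overlapped in Nfyb. Creb1, whose protein binds beside the X box, had a log2 fold change of 0.68, the acetyltransferase gene Kat2b had 0.23 with overlapping groups, and its fellow acetyltransferase gene Crebbp had -0.35. Both KO libraries were above both WT libraries in 6 of these 9 genes, against 35.3% of all genes tested.

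MHC class I presentation, which shows peptides from inside a cell and is found on nearly all cells, was set beside class II. Of 14 class I genes tested, 7 were lower and 7 higher, with a median log2 fold change of -0.04. Under median-ratio or upper-quartile scaling 9 were lower and 5 higher, with a median of -0.15 under each, and on the deposited scale the median lay between -0.32 (WT replicate 1 left out) and 0.15 (KO replicate 1 left out) when 1 library was left out. B2m, the light chain of class I, had 1213 and 1125 FPKM in WT mice against 1058 and 1589 FPKM in KO mice, and the heavy chain genes H2-K1 and H2-D1 had log2 fold changes of -0.25 and -0.58. Nlrc5, the class I counterpart of Ciita, had 6.81 and 5.08 FPKM in WT mice against 8.54 and 13.8 FPKM in KO mice (log2 fold change 0.79, limma adjusted p = 0.300), and by limma no class I gene passed the threshold on the adjusted p, or an unadjusted p under 0.05 with the same limit on the fold change. Pdia3 and Psmb10, chosen after their values were seen, passed that p with log2 fold changes of 0.87 and -0.75. The ratio of Cd74 to B2m was 0.407 and 0.400 in WT, 0.278 in KO replicate 1 and 0.0452 in KO replicate 2. The difference between the class I and class II lists was not tested.

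Interferon-gamma is the best known inducer of Ciita in cells that do not make class II by default. Ifng was listed at 0 in 3 libraries and at 0.139 FPKM in KO replicate 1, about 2.29 fragments, so a difference was not detectable at this depth. Of 17 tested genes of the interferon-gamma list, its receptors, signalling parts and targets, 14 were lower and 3 higher, with a median log2 fold change of -0.47, and 15 were lower under median-ratio scaling. The median lay between -0.66 (WT replicate 2 left out) and -0.12 (WT replicate 1 left out), and 12 of the 17 were lower with KO replicate 1 left out. The guanylate-binding protein gene Gbp3 and Irf8, a factor of myeloid cells, were the 2 genes past an unadjusted p under 0.05 with the limit of 1 on the fold change, as 4.14% of all genes were, and Gbp2 passed that p with a smaller fold. These genes were chosen for naming after their values were seen. The log2 fold changes of Gbp3, Irf8 and Gbp2 were -1.08, -1.46 and -0.71. With KO replicate 2 left out they were -0.74, -0.73 and -0.58, and with KO replicate 1 left out -1.43, -2.19 and -0.84.

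**Figure D3:**
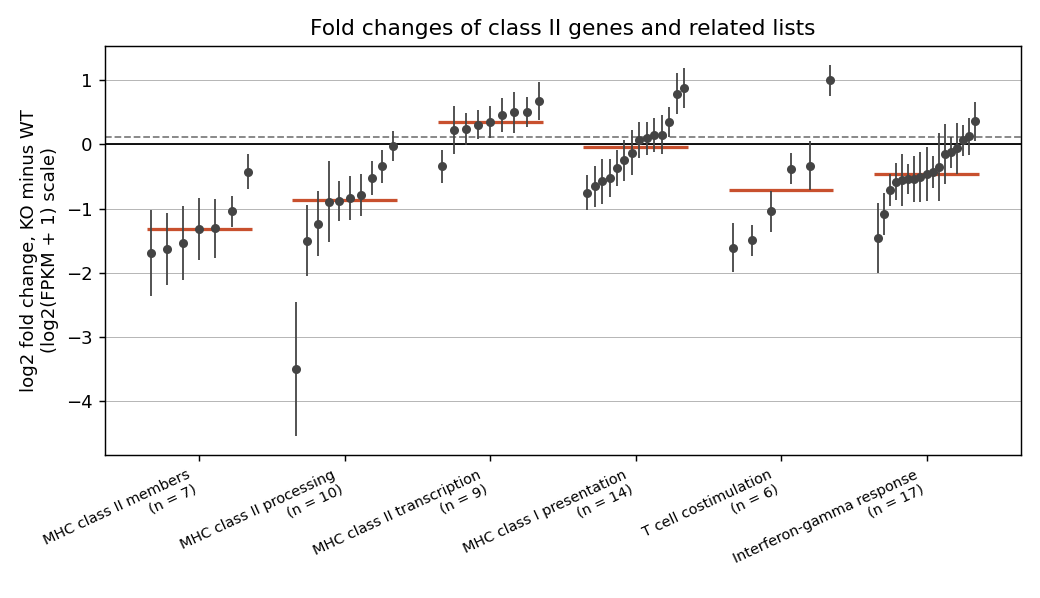
Log2 fold change, KO minus WT, on the log2(FPKM + 1) scale for each tested gene of the class II genes and of 5 related lists, ordered by size within a list, with bars of 1 standard error from limma. Orange lines mark each list's median (-1.32, -0.86, 0.35, -0.04, -0.71 and -0.47 from left to right), and the dashed line marks the median of all tested genes, 0.11.

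Markers of the cells that carry class II molecules moved with these genes. Of 8 pan-leukocyte markers 8 were lower (median log2 fold change -2.22), and of 14 tested macrophage markers 14 were lower, with a median of -2.59. With KO replicate 2 left out these medians were -1.25 and -1.21, and 12 of the 14 macrophage markers were lower. With KO replicate 1 left out they were -3.36 and -3.74. Summed macrophage markers were 2205 and 2292 FPKM in WT mice against 912 and 106 FPKM in KO mice. Ptprc, which encodes the leukocyte antigen CD45, had 10.6 and 8.93 FPKM in WT mice against 3.98 and 1.00 FPKM in KO mice. Of the 10 dendritic cell markers 6 were tested, all 6 of them lower, with a median of -1.18 and sums of 40.3 and 38.9 FPKM in WT mice against 29.0 and 6.90 FPKM in KO mice. With KO replicate 2 left out, 5 of these 6 were lower, with a median of -0.72. Flt3, a receptor of dendritic cell precursors, stayed at or under 0.657 FPKM in every library. Cd207, the langerin gene that defines Langerhans cells, overlapped between groups, with 2.22 and 1.63 FPKM in WT mice against 4.17 and 1.46 FPKM in KO mice. The other genes of the Langerhans list are also made by other skin cells, and of all 5 on it 4 were higher, 2 of them, Epcam of epithelia and the cytokine gene Il34 of keratinocytes, without overlap, near the 35.3% of all genes that lay above in this way. B cell markers were low, since all 8 together summed to at most 4.45 FPKM in a library, and Ms4a1, which encodes CD20, reached 0.0794 FPKM. The highest of them, Cd79b of the B cell receptor, had 0.808 and 2.38 FPKM in WT mice against 0.502 and 0.0734 FPKM in KO mice. In 4 of the 8 both KO values lay under both WT values, against 20.5% of all genes tested, but all 8 were too low to be tested. Fibroblast markers were lower in 7 of 8 genes with both KO libraries, and endothelial markers in 8 of 8, but no gene of either list had groups that did not overlap, and without KO replicate 2 the fibroblast median turned from -0.96 to 0.77 (log2). The endothelial median then went from -1.17 to -0.03, with 4 lower and 4 higher. The part of any of these cell types in the class II values was not tested.

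The class II genes differed less between genotypes than pan-leukocyte and macrophage markers did, and set against these markers in the same library they stood higher in GSDMD KO mice, as did nearly all genes. The median class II gene stood 1.16 and 1.07 log2 units above the mean of the pan-leukocyte markers in the WT libraries, and 1.62 and 2.11 above it in the KO libraries. The difference was 0.75 (p = 0.333 by an exact two-sided permutation test, the smallest this design allows), 0.50 when KO replicate 2 was left out and 0.99 when KO replicate 1 was, and 7 of 7 genes were higher in both KO libraries than in both WT libraries, as were 95.6% of all genes tested. Against macrophage markers the difference was 1.02, with 7 of 7 genes and 95.8% of all genes higher. Against Ptprc alone it was 0.46 (0.89 with a pseudocount of 0.1), with 5 genes higher and 2, H2-Ab1 and Cd74, overlapping, while 93.9% of all genes were higher. These counts are thus no result about the class II genes. As a plain ratio of FPKM, without a pseudocount, Cd74 stood to Ptprc at 46.5 and 50.5 in WT and at 73.9 and 71.6 in KO libraries. H2-Aa stood to Ptprc at 22.0 and 23.6 in WT and at 34.3 and 41.6 in KO libraries, and Ciita at 0.139 and 0.158 in WT and at 0.282 and 0.551 in KO libraries. Cd74 stood to Lyz2, the lysozyme gene of myeloid cells, at 0.392 and 0.434 in WT and at 0.714 and 1.39 in KO libraries. Against dendritic cell markers the direction depended on the pseudocount, and most of these markers are low. With a pseudocount of 1, Ciita was higher, H2-Aa, H2-DMa and Cd74 were lower and the other 3 genes overlapped. The share of all genes above or below in this way was not computed, so these counts are no result about the class II genes. The difference was -0.20 with a pseudocount of 1 and 0.37 with a pseudocount of 0.1, the second chosen after the data had been seen. Against epidermal keratinocyte markers, which were higher in 7 of 8 genes in GSDMD KO mice but in 4 of 8 with KO replicate 1 left out (median 0.96 and then 0.47), the class II genes were 2.08 log2 units lower, in 7 of 7 genes and in 34% of all genes tested.

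**Figure D4:**
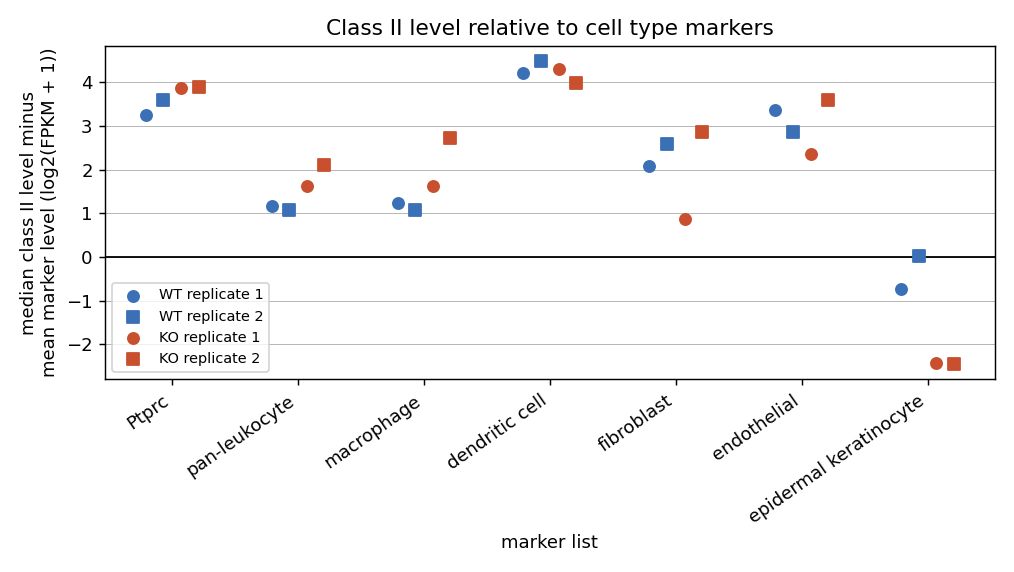
Level of the median class II gene minus the mean level of a marker list in the same library, in log2(FPKM + 1) units, for Ptprc and 6 marker lists, with libraries marked as in the plot of single genes. The KO points lie above the WT points for Ptprc, pan-leukocyte and macrophage markers, below them for keratinocyte markers, and overlap them for fibroblast and endothelial markers and for dendritic cell markers.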

How the data were processed

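Skin RNA of 2 WT and 2 GSDMD KO mice was sequenced, and groups and replicate numbers were taken from the sample titles. Each library was taken as 1 mouse, and p-values measure the spread between these libraries only. The authors aligned paired reads to mm9 with HISAT2 and describe counting with featureCounts and testing with DESeq2, and the submitters' processing notes list HISAT2 2.0.1 and StringTie 2.0.6. The deposited table is named as counts but holds FPKM, values the authors had already divided by length and depth: 99.993% of the values above 0 are not whole. A count model was therefore not used. Its 0 rows without a gene name and 0 columns without a sample needed no handling. Starts in the table count from 0, and 1 was added. March1 and March8 had been turned into dates (26 such names in all) and were found by position.

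Values were taken as log2(FPKM + 1). A gene was tested where 2 or more libraries reached 1 FPKM, which left 13027 genes for limma 3.58.1 in R 4.3.3 (genotype as the only term, moderation with a trend), and Benjamini-Hochberg adjustment ran over all of them. Calls took the limits of the study, adjusted p below 0.05 together with a log2 fold change beyond 1 in either direction. The fit was tested on simulated data with known changes. Depth was estimated from 2710 genes with 1 transcript of at least 2 kb and is approximate, so no interval was derived from it. Gene spans were compared with GENCODE on mm9, where 99.2% of the 20312 genes found by symbol overlapped.

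The 7 genes and all lists were chosen with earlier results of these data known. The text names all 7, every gene of the other chains, processing and transcription lists, and the 8 genes with the nearest profile. Of each other list it names a few, at most the 4 highest plus its defining genes. Gbp2, Gbp3, Irf8, Pdia3, Psmb10, Cd80 and Cd86 fall outside this rule and were named after their values were seen. Of the defining genes, 2 are not reported here. The alternatives were other pseudocounts, filters, scalings and moderation, the replicate number as a block, an unadjusted threshold, other marker lists and leaving out each library. Promoter letters were read from RefSeq sequences on GRCm38.p6. Entries for H2-Ab1, Cd74 and Ciita were not used here.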

Additional observations from a re-analysis of the deposited data

How the results depend on the processing

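Over 97 refits of single class II genes, 97 fold changes were negative and 6 passed the threshold, all 6 without KO replicate 1. Ciita was not tested with a filter of 1 FPKM in all libraries, which it did not pass. The count of class II genes called by limma, 0 of 7, ranged from 0 to 6 when 1 library was left out and was 5 at the unadjusted p. Over the whole table, 0 genes became 2058 without KO replicate 1, 43 without KO replicate 2 and 1341 at the unadjusted p. The median log2 fold change of the 7 genes ranged from -1.99 to -0.68 when 1 library was left out. Relative to marker lists, the value of 0.75 against pan-leukocyte markers became 1.02 against macrophage markers, 0.46 against Ptprc and -0.20 against dendritic cell markers. With a pseudocount of 0.1, chosen after seeing the data, it was 1.31 against macrophage markers, 0.89 against Ptprc and 0.37 against dendritic cell markers. The deviations of same-numbered libraries had a correlation of -0.20 over 13027 genes, and no source pairs these libraries. With the replicate number as a block (replicate block), 0 class II genes and 0 genes in all were called, and 6 class II genes passed at the unadjusted p, with 686 lower and 907 higher genes in all. A crossed replicate block, added after seeing the data, gave 3 class II genes, 681 lower and 819 higher genes. With upper-quartile scaling the unadjusted split was 697 lower and 628 higher.

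With 2 libraries per group, the KO library that is read decides how far the class II genes differ. Ciita and H2-DMb2 rest on few fragments.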

Other observations

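Genes for T cell costimulation, the second signal that antigen-presenting cells give beside the class II molecule, were lower in 5 of 6 tested (median log2 fold change -0.71). Icam1, an adhesion molecule, had 17.9 and 18.7 FPKM in WT mice against 15.7 and 12.2 FPKM in KO mice. Cd274, which encodes the inhibitory ligand PD-L1, overlapped between groups, with 7.62 and 5.26 FPKM in WT mice against 3.37 and 6.80 FPKM in KO mice. Icosl, the ligand of ICOS, went the other way, with 3.65 and 3.58 FPKM in WT mice against 7.32 and 9.16 FPKM in KO mice (log2 fold change 0.99, limma adjusted p = 0.248). Cd40, the receptor through which T cells signal back, had 4.17 and 5.68 FPKM in WT mice against 1.65 and 0.401 FPKM in KO mice (log2 fold change -1.61, limma adjusted p = 0.248). Cd80 and Cd86, the ligands of CD28, were chosen for naming after their values were seen and had log2 fold changes of -1.49 and -1.04.

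Among markers of T cells, the cells that read class II molecules, 5 of 10 were tested, 3 of them lower, and the median fold change was -0.05 on the log2 scale. The KO libraries were opposed here: with KO replicate 1 left out 5 of 5 were lower, with a median of -0.90, and with KO replicate 2 left out 1 was lower and 4 were higher, with a median of 0.30. Cd3e, a part of the T cell receptor complex, had 1.33 and 1.60 FPKM in WT mice against 2.02 and 0.182 FPKM in KO mice.

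By distance between centred log2 profiles over the 4 libraries, the 8 genes most like the median of the class II genes were Synpo2, Myo18b, Zyx, Sp110, Mcub, Oas2, Mfsd12 and Cilp, at distances from 0.0858 to 0.186 log2 units. Synpo2, nearest of these, had 47.7 and 54.4 FPKM in WT mice against 32.4 and 12.1 FPKM in KO mice. The class II genes themselves lay at 0.0529 for H2-Eb1, 0.204 for H2-DMa, 0.360 for H2-Aa, 0.419 for H2-Ab1, 0.621 for Cd74, 0.818 for H2-DMb1 and 1.10 for Ciita. A profile of 4 points that share the same libraries describes likeness in this table only.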
